A study of Homo sapiens with 5 samples.

Results

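The genes BBC3, TNFRSF10B, FAS, BAX, TP53INP1 and AEN, 6 apoptosis genes that p53 is known to switch on, were examined for the binding of p53 and JMJD3. The genes were picked by name, and the sites described are all listed binding sites within 50 kb of an approximate transcription start site (TSS) on the hg18 assembly. In all, 68 of the 43443 listed sites met this rule, namely 6 of 361 p53 sites in untreated cells, 9 of 3232 p53 sites after ionizing radiation (IR), 4 of 4717 JMJD3 sites in untreated cells and 49 of 35133 JMJD3 sites after IR. All data came from BJ cells, human foreskin fibroblasts that were immortalized with telomerase (hTERT) and that carried no other alteration named in the labels. One group was left untreated and the other received 10 Gy of X-rays, with harvest 6 h later in the labels and 5 h later in the study's own text. Chromatin was precipitated with the p53 antibody DO-1 or with an antibody raised in rabbits against JMJD3, and each of the 4 combinations was sequenced as 1 library. There were thus no replicates, no test between conditions was possible, and all values describe these 4 libraries. Because the 4 peak lists used here carry positions without height, score or read number, a site is either listed or not, its width is the only measure of size, and the depth of each library was not known here. BJ cells are a single line, and whether they still express fibroblast markers cannot be read from binding sites.

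p53 binds DNA as a tetramer at response elements built from a pair of half-sites, and after DNA damage it activates genes that arrest the cell cycle, repair DNA or kill the cell. Its apoptosis targets act at different points. TNFRSF10B (the death receptor DR5) and FAS (CD95) are receptors at the cell surface that activate caspases when their ligands bind. BBC3 (PUMA) and BAX act on the outer mitochondrial membrane, where PUMA neutralizes the protective BCL2 proteins and BAX forms the pores that release cytochrome c. TP53INP1 is a nuclear stress protein that promotes phosphorylation of p53, and AEN is a nuclease that digests DNA in dying cells. JMJD3 (KDM6B) removes methyl groups from lysine 27 of histone H3, a mark laid down by Polycomb complexes on repressed genes, and has no known sequence preference of its own.

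To show the DNA at these start sites, RefSeq promoters (GRCh38.p14, from 250 bases before to 50 bases after an annotated start) were searched for the p53 response element consensus, allowing 0 to 13 bases between its half-sites. The consensus reads the same on both strands, so a single pass covers both. The table held promoters for 4 of the 6 genes, with 3 starts for FAS and 1 each for BBC3, BAX and AEN. A single promoter per gene is printed 5′ to 3′, for FAS the one whose half-sites matched best with no bases between them, and capitals mark the best match to the pair of half-sites.
AEN, plus strand, chr15:88621090-88621389: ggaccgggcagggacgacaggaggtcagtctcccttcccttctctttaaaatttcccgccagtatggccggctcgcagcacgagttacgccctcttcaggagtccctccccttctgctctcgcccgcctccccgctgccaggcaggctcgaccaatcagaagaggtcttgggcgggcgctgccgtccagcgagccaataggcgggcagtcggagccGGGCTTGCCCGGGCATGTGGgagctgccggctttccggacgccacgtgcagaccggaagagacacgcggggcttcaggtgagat
FAS, plus strand, chr10:88991181-88991480: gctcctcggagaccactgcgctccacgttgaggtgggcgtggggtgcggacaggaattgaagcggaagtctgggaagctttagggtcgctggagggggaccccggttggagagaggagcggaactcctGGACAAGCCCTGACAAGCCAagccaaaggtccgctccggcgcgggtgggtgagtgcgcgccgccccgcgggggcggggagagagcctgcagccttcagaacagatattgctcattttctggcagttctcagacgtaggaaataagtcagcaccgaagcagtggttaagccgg
BBC3, minus strand, chr19:47232618-47232917: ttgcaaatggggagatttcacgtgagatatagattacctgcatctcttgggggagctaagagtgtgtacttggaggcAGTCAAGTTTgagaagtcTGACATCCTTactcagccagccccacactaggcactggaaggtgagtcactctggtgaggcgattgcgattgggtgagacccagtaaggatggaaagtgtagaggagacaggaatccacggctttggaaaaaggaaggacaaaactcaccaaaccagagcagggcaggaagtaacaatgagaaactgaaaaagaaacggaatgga
BAX, plus strand, chr19:48954625-48954924: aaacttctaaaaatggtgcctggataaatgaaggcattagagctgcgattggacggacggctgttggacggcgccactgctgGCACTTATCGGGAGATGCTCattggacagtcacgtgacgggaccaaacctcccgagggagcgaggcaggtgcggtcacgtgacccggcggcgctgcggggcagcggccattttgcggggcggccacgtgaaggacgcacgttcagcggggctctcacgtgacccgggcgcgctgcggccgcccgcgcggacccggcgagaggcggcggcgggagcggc

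The closest matches were found at AEN and at 1 of the 3 FAS starts, which was picked for printing because of its match. Each had 2 mismatches over the 20 bases and no bases between the half-sites, and the first half-site of each was free of mismatches. A match of at most 2 mismatches was held by 7.82% of the 35114 promoters searched when up to 13 bases were allowed between the half-sites, and by 0.649% when none were. At the other 2 FAS starts the best match with no bases between the half-sites had 5 mismatches, and 70.5% of promoters had as few. With bases between them these starts had 2 and 3 mismatches, and 7.82% and 39.1% of promoters had as few. A half-site without mismatch occurred in 6.63% of promoters. The best match had 3 mismatches at BBC3, where 39.1% of promoters had as few, and 4 at BAX, where 84.2% had as few, so these windows were not set apart from other promoters. The 4-base core CATG occurred once in the AEN promoter, in none of the other 3 printed, and in 54.9% of all promoters. Of the 2 FAS promoters not printed, 1 held it once. A pair of CATG cores with 6 bases between them was present in 0.373% of promoters and in none of those of the 4 genes. The AEN element lay 34 to 15 bases before the annotated start. The binding sites are given in hg18 and no position was carried from one assembly to the other, so the letters above are those of annotated promoters and were not read from the peaks.

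After IR a p53 site was listed within 1 kb of the start of every one of the 6 genes, and in untreated cells within 5 kb of 5 of them, FAS being the exception. Of all 100 kb tiles of the genome, 9.48% held a p53 site after IR and 1.16% in untreated cells. The 9 p53 sites after IR comprised 7 near a start and 2 more than 30 kb away, and none had its nearest edge between 1 and 20 kb from a start. Of the 6 p53 sites in untreated cells, 5 came within 1 kb of a start and the inner BBC3 site began 1130 bases after it. A p53 site had already been listed before IR at 6 of these 9 (66.7%, exact 95% interval 29.9 to 92.5%), compared with 10.6% of all p53 sites after IR. This difference went along with width. The 7 sites near a start were 462 to 950 bp wide, against a median of 288 bp for the list, and among the 394 other p53 sites of at least 462 bp 62.4% were already listed in untreated cells, which lies inside the interval of the 6 of 7 sites near a start (85.7%, 42.1 to 99.6%). The limit of 462 bp is the width of the narrowest of the 7 and was chosen after the values were seen. The plot of sites by distance from the TSS shows both antibodies before and after IR.

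**Figure D1:**
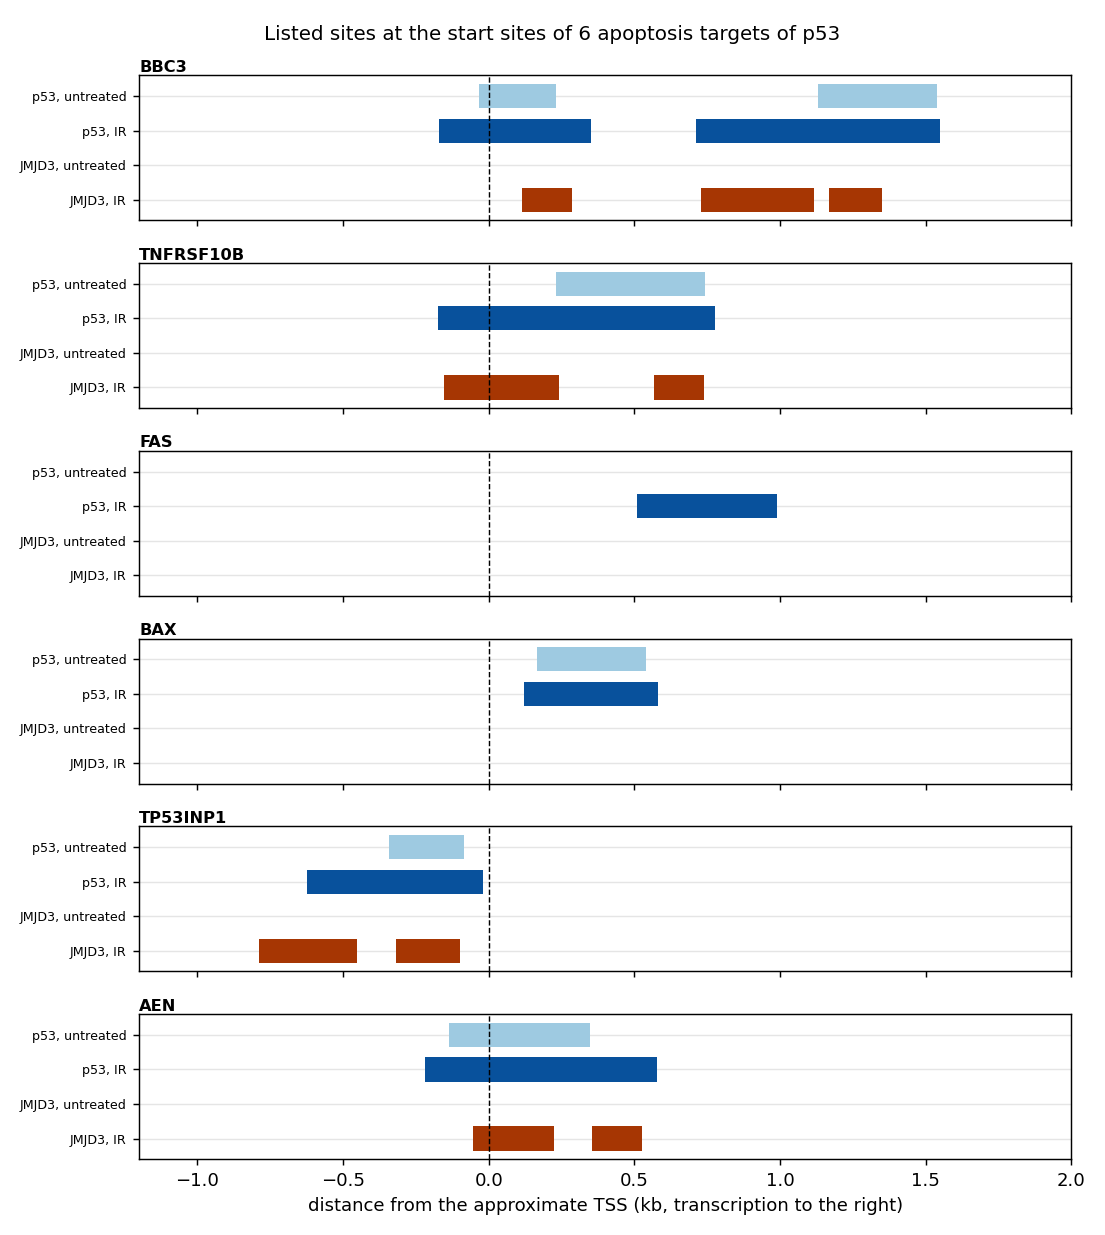
Sites of the 4 lists around the approximate TSS of each gene, as boxes drawn to scale by distance from the TSS in kb, with transcription to the right and the TSS at the dashed line. The panels end 1.2 kb before and 2 kb after the TSS, and within these limits a p53 site after IR stands in every panel and JMJD3 boxes after IR stand in 4 of the 6, at BBC3, TNFRSF10B, TP53INP1 and AEN, while the row for JMJD3 in untreated cells is empty throughout.

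Among the death receptors, TNFRSF10B held the widest p53 site of the 6 genes. In untreated cells it ran from 22981857 to 22982370 on chromosome 8 and was 514 bp wide. After IR it ran from 22981824 to 22982773 and was 950 bp wide, wider than 99.6% of the p53 sites of that list. Measured along the gene, which is read from the minus strand, the site after IR covered the bases from 173 before to 776 after the TSS at 22982600. The site grew by 403 bp on its upstream side, across the TSS, and by 33 bp on its downstream side. A pair of JMJD3 sites of irradiated cells lay wholly inside it, 394 and 172 bp wide, the first across the TSS from 152 bases before to 241 after and the second from 569 to 740 bases after. JMJD3 was not listed within 50 kb of this gene in untreated cells, where the nearest site was 221 kb away.

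The TNFRSF10B window also held a p53 site that was listed after IR only. It is called distal here by its distance from the TNFRSF10B start alone. It lay 33.9 kb upstream, from 23016467 to 23016959, and was 493 bp wide. A JMJD3 site of 204 bp, from 23016447 to 23016650, shared 184 bp with it and was likewise absent from the list of untreated cells. This was the only distal site among the 6 windows at which both proteins were listed. The adjoining gene on that side in RefSeq order is TNFRSF10C, which encodes a decoy receptor for the same ligand. Whether the site lies at the start of TNFRSF10C was not checked, since no hg18 start of that gene was at hand.

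FAS was the only gene of the 6 without a p53 site in untreated cells, where the nearest was 1147069 bp away. After IR a p53 site of 482 bp was listed from 90740779 to 90741260 on chromosome 10, covering bases 509 to 990 after the TSS at 90740270. It was wider than 89.1% of the p53 sites after IR. No JMJD3 site after IR overlapped the p53 site, and the nearest was 38.3 kb away. For comparison, the 2546 p53 sites after IR that no JMJD3 site overlapped had a median distance of 26.8 kb to the nearest one (quartiles 8.44 and 72.3 kb).

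At the mitochondrial genes, BBC3 had a pair of p53 sites in both conditions. The site over the TSS was 265 bp wide in untreated cells, from 52427569 to 52427833 on chromosome 19, and 522 bp after IR, from 52427450 to 52427971. The site inside the gene was 410 bp wide in untreated cells, from 52426261 to 52426670, and 838 bp after IR, from 52426252 to 52427089. Along this minus-strand gene the latter covered bases 711 to 1548 after the TSS at 52427800 and was wider than 99.1% of its list. It had grown by 419 bp on its upstream side, toward the TSS, and by 9 bp on the other. JMJD3 was listed after IR in both p53 sites. The site over the TSS held 1 JMJD3 site of 171 bp and the inner site held 2, of 389 and 182 bp, and all 3 lay wholly within the p53 sites. In untreated cells the only JMJD3 site of the window lay 5.96 kb into the gene and was 286 bp wide. After IR a JMJD3 site of 949 bp covered that place.

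BAX kept its p53 site with the smallest change in width. It was 373 bp wide in untreated cells, from 54150097 to 54150469 on chromosome 19, and 462 bp after IR, from 54150050 to 54150511, which covers bases 120 to 581 after the TSS at 54149930. The ratio of both widths was 1.24, the lowest of the 6 pairs. Both of its borders moved outward by like amounts, 47 bp upstream and 42 bp downstream. No JMJD3 site overlapped it in either condition. The nearest JMJD3 site was 11.5 kb away in untreated cells and 5.62 kb away after IR, farther into or beyond the gene in both cases. Within 50 kb, however, BAX had 12 JMJD3 sites after IR, the most of the 6 genes.

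TP53INP1 had its p53 site just upstream of the TSS. The site was 259 bp wide in untreated cells, from 96030876 to 96031134 on chromosome 8, and 605 bp after IR, from 96030810 to 96031414. With a ratio of 2.34 it showed the largest relative gain in width of the 6 pairs, having been below the untreated median of 295 bp before IR. Along this minus-strand gene it covered the bases from 624 to 20 before the TSS at 96030790. It was overlapped after IR by JMJD3 sites of 221 and 337 bp, the latter reaching past the upstream border of the p53 site and sharing 171 bp with it. JMJD3 was not listed within 50 kb in untreated cells, the nearest site being 707 kb away. A distal p53 site of 271 bp, listed after IR only, lay 31.8 kb downstream from 95998708 to 95998978. It was narrower than the median of its list and had no JMJD3 site within 5 kb.

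The p53 site of AEN lay across the TSS at 86965500 on chromosome 15. It was 484 bp wide in untreated cells, from 86965365 to 86965848, and 797 bp after IR, from 86965280 to 86966076, which covers the bases from 220 before to 576 after the TSS. It was wider than 98.8% of the p53 sites after IR. Unlike at the other genes with JMJD3, the greater gain lay downstream, 228 bp against 85 bp upstream. JMJD3 sites of 278 and 170 bp were listed inside it after IR, the first across the TSS from 54 bases before to 223 after. In untreated cells the nearest JMJD3 site lay 17.1 kb from the p53 site.

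Each of the 6 p53 sites listed in untreated cells was contained in a wider site after IR. The ratio of widths ranged from 1.24 to 2.34 with a median of 1.91. This holds across the genome as well, since all 345 p53 sites of untreated cells that were listed again (95.6% of that list) were wider after IR (100%), with a median ratio of 1.84. The widening at the apoptosis genes is therefore that of the whole list. The plot of widths shows each site before and after IR.

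**Figure D2:**
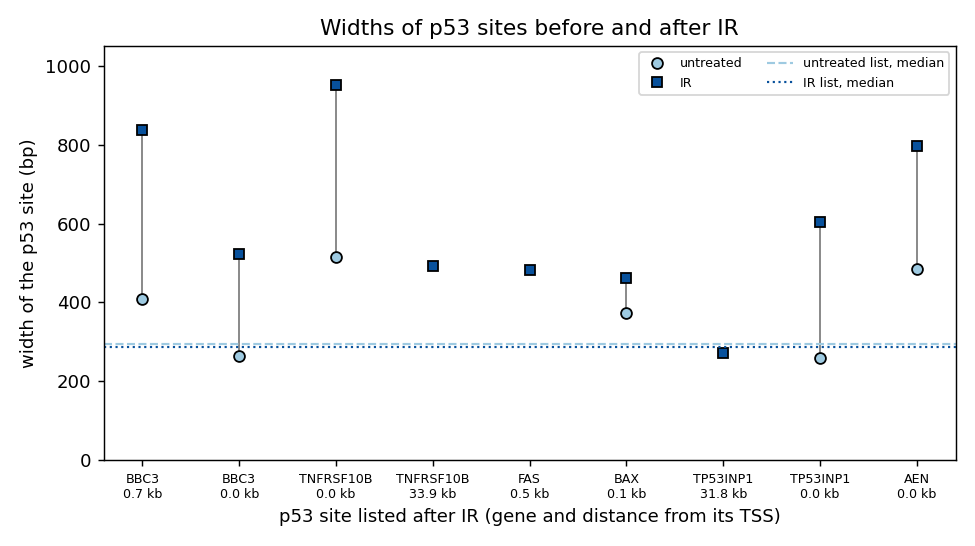
Width in bp of each of the 9 p53 sites listed after IR (squares), joined to the p53 site of untreated cells that it overlaps (circles) where there is one, with the gene and the distance from its TSS on the x axis. The dashed and dotted lines are the medians of both lists, 295 and 288 bp, and all 6 joined pairs rise after IR.

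Co-listing of both proteins was found after IR only. At 4 of the 6 genes, BBC3, TNFRSF10B, TP53INP1 and AEN, a JMJD3 site overlapped a p53 site after IR, and at FAS and BAX none did. In untreated cells no JMJD3 site was listed at any of the 9 (exact 95% interval 0 to 33.6%), against 2.63% of all p53 sites after IR and 2.28% of the other wide ones, shares that lie inside the interval. After IR 6 of the 9 sites were overlapped (66.7%, 29.9 to 92.5%), compared with 21.2% of all p53 sites after IR. This count depends on the overlap rule, since the p53 centre fell inside a JMJD3 site at 1 of the 9 (11.1%), that of AEN, compared with 15.1% of all p53 sites after IR. For the 7 sites near a start the count was 5 (71.4%, 29 to 96.3%), and among the 394 other p53 sites at least as wide as the narrowest of these it was 142 (36%), a share inside that interval. The study itself names BBC3, TNFRSF10B and TP53INP1 among the promoters bound by both proteins in these libraries, so their co-listing is not independent evidence. Of the 3 p53 sites of the remaining genes, FAS, BAX and AEN, 1 was overlapped. Of the 6 places where p53 had been listed before IR, 5 held JMJD3 after IR (83.3%, 35.9 to 99.6%), compared with 28.5% of all p53 sites of untreated cells. These 5 lie at BBC3, TNFRSF10B, TP53INP1 and AEN, of which the study names all but AEN. No comparison with sites of like width was made for this share. How the share over promoters of all genes compares was not analysed here, because start sites on hg18 were at hand for the 6 genes alone, so the shares above set sites at gene starts against sites anywhere in the genome. For the same reason no other genes of the apoptosis pathway were added.

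**Figure D3:**
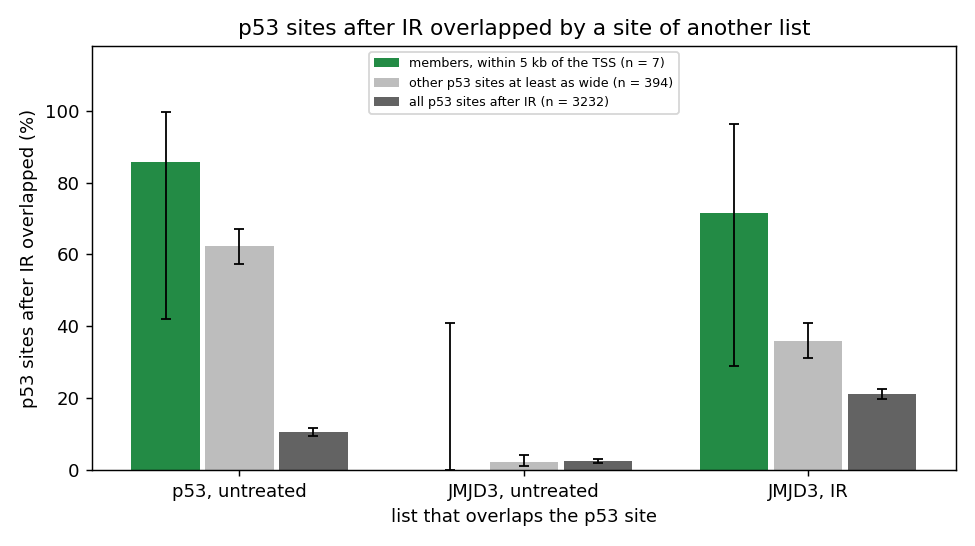
Percent of p53 sites after IR that overlap a site of the list on the x axis, for the 7 sites within 5 kb of a TSS of the 6 genes, the 394 other p53 sites at least 462 bp wide and all 3232 sites; error bars are exact 95% binomial intervals, for counting error only. The wide interval of the 7 sites takes in the share of the other wide sites for each list.

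Where JMJD3 met p53 near a start it was usually listed as a pair of sites. Of the 6 co-listed p53 sites, 4 held 2 JMJD3 sites each, the inner BBC3 site and the sites of TNFRSF10B, TP53INP1 and AEN. Of the 686 p53 sites with JMJD3 after IR across the genome 24 (3.5%) held 2 or more, and of the 142 wide ones outside the 6 windows 15 (10.6%). The members of each pair were 51 bp apart at BBC3, 327 bp at TNFRSF10B, 134 bp at TP53INP1 and 131 bp at AEN. At BBC3, TNFRSF10B and TP53INP1 the centre of the p53 site fell into the gap between the JMJD3 sites, and at AEN it fell inside one of them. Across the genome the centre fell between the JMJD3 sites at 5 of the 24 (20.8%), including these 3. The centre of a wide site need not be where p53 was bound most. With the centre of the narrower p53 site of untreated cells in its place, it fell into the gap at TNFRSF10B alone and inside a JMJD3 site at BBC3, TP53INP1 and AEN. The members of each pair also differed in where they lay against the p53 site of untreated cells. One JMJD3 site of each pair, that of 182 bp at BBC3, 172 bp at TNFRSF10B, 221 bp at TP53INP1 and 278 bp at AEN, lay wholly on bases already listed for p53 before IR. The other shared 0 bp with the p53 site of untreated cells at BBC3, TP53INP1 and AEN and 12 of its 394 bp at TNFRSF10B. It lay within the wider p53 site after IR at BBC3, TNFRSF10B and AEN, while at TP53INP1 it shared 171 of its 337 bp with that site and the rest lay outside p53 in both conditions. Across the genome 16 p53 sites after IR held at least 2 JMJD3 sites and a p53 site of untreated cells, and at 11 of them (68.8%), including 3 of these 4, a JMJD3 site on the earlier p53 bases stood beside another that shared none of them. The arrangement at these genes is thus common among such sites. It was noticed in the data, and no cause of it was tested. The pairs rest on narrow JMJD3 sites, since with a minimum width of 200 bp only 1 p53 site of the 6 genes, that of TP53INP1, held 2 JMJD3 sites, in place of 4, and 7 across the genome (1.79% of 392) in place of 24.

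JMJD3 covered the co-listed p53 sites in part. The covered share of the p53 width was 68.1% at the inner BBC3 site, 64.8% at TP53INP1, 59.6% at the start of TNFRSF10B, 56.2% at AEN, 37.3% at the distal TNFRSF10B site and 32.8% at the BBC3 start. Of the 10 JMJD3 sites that overlapped a p53 site, 8 lay wholly inside it.

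In the wider surroundings more JMJD3 sites were listed after IR than before at each gene. In untreated cells the counts within 50 kb were 1 at BBC3, 2 at BAX, 1 at AEN and 0 at TNFRSF10B, FAS and TP53INP1. After IR they were 11 at BBC3, 6 at TNFRSF10B, 6 at FAS, 12 at BAX, 4 at TP53INP1 and 10 at AEN. The total went from 4 to 49, a ratio of 12.2 (exact 95% interval 4.49 to 46.7), and over all sites the ratio was 7.45, inside this interval. No JMJD3 site under 200 bp is listed for untreated cells, and with this minimum in both conditions the total went from 4 to 27, a ratio of 6.75 (2.35 to 26.5), and the ratio over all sites was 3.28. The counts after IR were then 6 at BBC3, 3 at TNFRSF10B, 3 at FAS, 6 at BAX, 2 at TP53INP1 and 7 at AEN. By contrast p53 went from 6 to 9 sites, a ratio of 1.5 (0.477 to 5.12) that lies below the 8.95 of the whole list, since most p53 sites near these genes were already listed before IR. Of all 100 kb tiles 37.9% held a JMJD3 site after IR and 8.61% in untreated cells. Around the 3232 p53 sites after IR the median was 2 JMJD3 sites within 50 kb (quartiles 0 and 4). Of these p53 sites 26.7% had at least 4, the lowest number among the 6 genes. Their windows are centred on p53 sites anywhere in the genome, those of the 6 genes on gene starts. JMJD3 sites under 200 bp are included, and these values were not recomputed without them. For JMJD3 in untreated cells the median around the same p53 sites was 0 and the 90th percentile 1. BAX with 2 was thus above this percentile before IR, both sites being overlapped after IR by the same site of 1307 bp. With sites merged within 1 kb this pair counts as 1. The 6 windows then held 3 JMJD3 sites of untreated cells in place of 4.

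**Figure D4:**
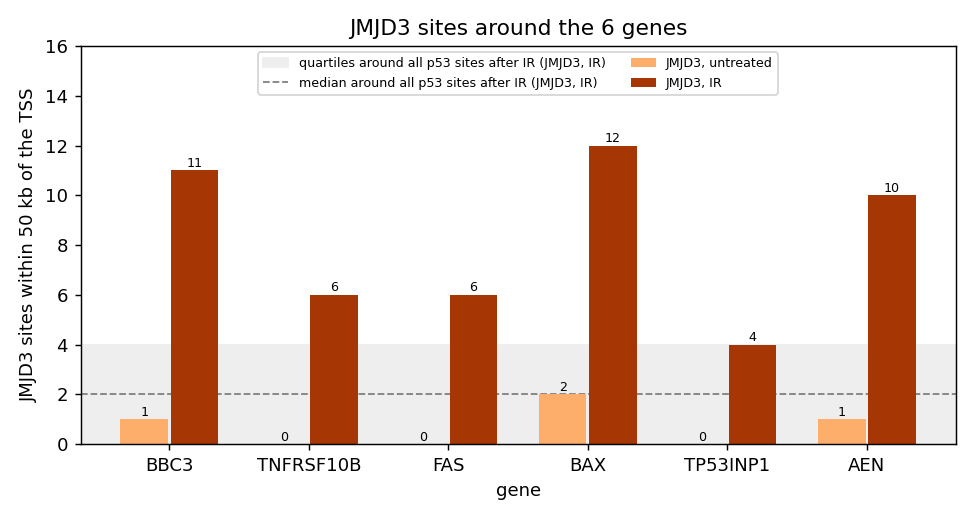
Number of JMJD3 sites within 50 kb of the TSS of each gene in untreated cells and after IR. Grey band (quartiles 0 and 4) and dashed line (median 2) count JMJD3 sites after IR within 50 kb of all p53 sites after IR. TP53INP1 stands at the top of the band and the other 5 genes above it. The band is centred on p53 sites anywhere in the genome and the bars on gene starts.

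Most of these JMJD3 sites were away from p53. Of the 49 sites after IR, 10 (20.4%, exact 95% interval 10.2 to 34.3%) overlapped a p53 site after IR, compared with 2.02% of all JMJD3 sites, the genes having been chosen as p53 targets. By distance, 8 lay within 1 kb of a start, 3 between 1 and 5 kb, 22 between 5 and 20 kb and 16 between 20 and 50 kb. JMJD3 had already been listed before IR at 4 of the 49 (8.16%, 2.27 to 19.6%), where the whole list gave 11.9%. Conversely each of the 4 JMJD3 sites of untreated cells was listed again after IR, as were 86.8% of that list. Of the 49 sites 22 were under 200 bp (44.9%, and 56% in the whole list), a width that does not occur in the other 3 lists.

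The most extended JMJD3 binding lay downstream of BAX and AEN and held no p53 site. In the direction of BAX transcription, 10 JMJD3 sites after IR followed each other from 6.2 to 13.8 kb after the TSS, from 54156131 to 54163709, and were 144 to 1307 bp wide. The pair of JMJD3 sites of untreated cells in this window, of 416 and 951 bp, lay at the far end of the run, 12.1 to 13.5 kb after the TSS. The next gene in that direction in RefSeq order is FTL, which encodes the light chain of ferritin. At AEN, 7 JMJD3 sites after IR of 125 to 860 bp filled a stretch of 3.27 kb, from 86980169 to 86983440, that began 14.7 kb after the TSS. The JMJD3 site of untreated cells of this window, 316 bp wide, lay under the 860 bp site. The next gene there is ISG20, an interferon-induced RNA nuclease. At BBC3 a run of 3 sites lay 4.02 to 6.48 kb into the gene and a second run of 3 reached from inside one p53 site to inside the other. At FAS the only run, 3 sites of 186 to 220 bp, lay 38.5 to 40 kb upstream with no JMJD3 site listed there in untreated cells. ACTA2, the smooth-muscle actin gene, overlaps FAS in RefSeq and extends to that side. Runs were defined as 3 or more sites with at most 2 kb between neighbours. To which gene a run belongs was not determined, since the neighbours are known here by order and not by hg18 position.

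**Figure D5:**
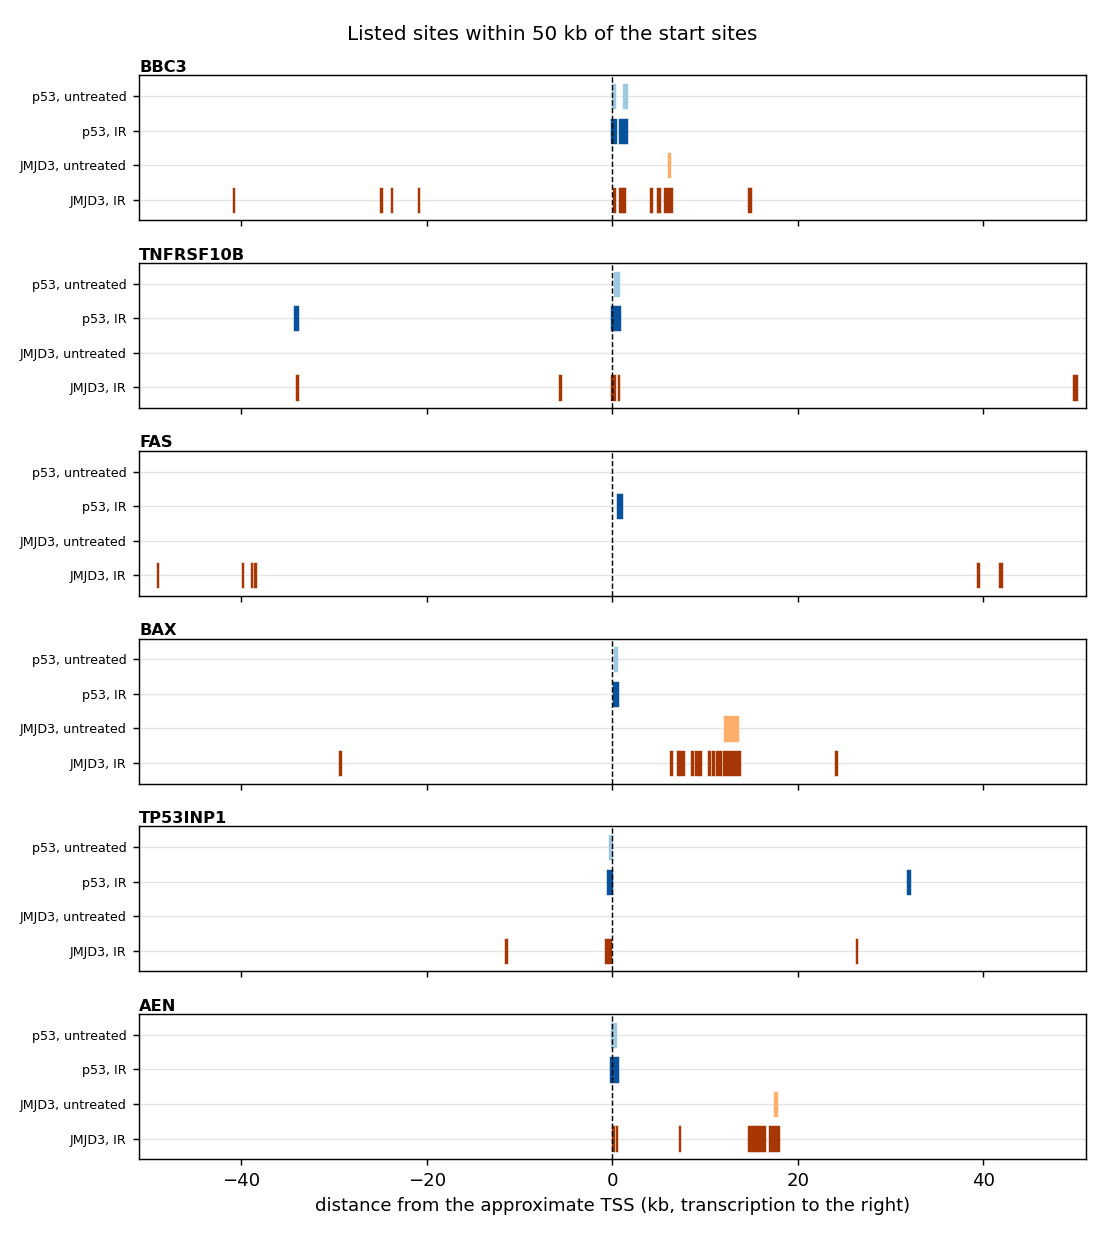
Sites of the 4 lists within 50 kb of the approximate TSS of each gene by distance in kb, with transcription to the right; a thin outline widens each box slightly so that narrow sites can be seen. JMJD3 sites after IR crowd 6.2 to 13.8 kb downstream at BAX and 14.7 to 17.9 kb at AEN, where no p53 site is drawn. The p53 sites far from the TNFRSF10B and TP53INP1 starts appear after IR only.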

How the data were processed

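To make the deposited lists, the authors placed unique tags on hg18 (Bowtie 0.12.7, SAMtools) and searched every library for peaks with MACS2, IgG reads serving as control. The threshold is not given in the sources used here. The 4 deposited peak lists used here hold positions alone (chromosome, start, end), so no signal, score, p-value or depth entered the analysis, and regions where tags align to several places are missed. The only IgG library of the series is labelled as coming from untreated cells, and it was not analysed here. Irradiated cells thus have no IgG library in the series.

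The start sites were taken from the rule that defines the 6 genes and are approximate. Strands came from RefSeq for 4 genes and from general knowledge for TNFRSF10B and TP53INP1. Sites were counted when their nearest edge lay within 50 kb of the TSS, and an overlap needed 1 shared bp. Positions count from 1. Intervals are exact (Clopper-Pearson) 95% binomial intervals that take in counting error alone, and sites close to each other are not independent. Under the rule for named genes, all 6 genes and all p53 sites of their windows are described. Tiles of 100 kb ran from the start of each chromosome to its last listed site. Genes and comparisons were chosen with earlier results of these data known. The overlap and distance steps, in Python 3.11.15 with numpy 2.4.6 and scipy 1.17.1, were tested on simulated data, and figures were drawn with matplotlib 3.10.9. Alternatives were other windows, overlap rules, minimum widths, merged sites and shifted start sites.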

Additional observations from a re-analysis of the deposited data

How the results depend on the processing

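Of 67 comparisons of a result with an alternative, 58 stayed within 1.5 times the count or the counting interval of the share or ratio. The other 9 moved by more, and a change of direction was not scored. The number of JMJD3 sites after IR in the 6 windows was 32 with the wider 50% of the list, 23 with sites merged within 1 kb and 27 with sites of at least 200 bp, in place of 49; each of these leaves fewer sites by construction. At 200 bp the ratio of JMJD3 sites after IR to untreated cells was 3.28 over all sites in place of 7.45, and 1 p53 site of the 6 genes held 2 JMJD3 sites in place of 4. With a limit of 10 kb in place of 5 kb, or with the TSS moved 1 kb downstream, 1 gene, BBC3, had a JMJD3 site in untreated cells in place of 0. If an overlap required the p53 centre to fall within a JMJD3 site, 1 of 9 p53 sites (11.1%) and 1 gene, AEN, remained. This was in place of 66.7% and 4 genes, since the JMJD3 sites lay beside the centre. Beside all p53 sites after IR, the share was lower under this rule (11.1% against 15.1%) and higher under 1 shared bp (66.7% against 21.2%). The alternatives for the JMJD3 ratio and the pairs of JMJD3 sites, for sites within 5 kb, for FAS, BAX and AEN alone (33.3%, 1 of 3 sites) and for half-sites without bases between them were added with the values known. No paired analysis was possible because there is 1 library for each antibody and treatment. As depth is not known, a site missing from a list cannot be told apart from one too weak to be listed.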

Other observations

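Between 50 and 100 kb from the start sites, 4 more p53 sites were listed after IR and none in untreated cells, and 3 of the 4 overlapped a JMJD3 site after IR. One lay 74.4 kb upstream of AEN, from 86890836 to 86891147 on chromosome 15, and held a JMJD3 site of 204 bp. Another lay 82.2 kb upstream of BAX, from 54067446 to 54067700 on chromosome 19, inside a JMJD3 site of 911 bp, so that the only p53 site with JMJD3 within 100 kb of BAX was not the one at its start. TNFRSF10B had a p53 site of 361 bp 54.4 kb downstream that overlapped a JMJD3 site of 132 bp, and one of 430 bp 94.3 kb upstream that overlapped none. At the border of the 50 kb window, a JMJD3 site of 131 bp downstream of TNFRSF10B was counted and the next, at 50.2 kb, was not. FAS had 1 JMJD3 site in each condition between 50 and 100 kb, at 63.4 kb upstream in untreated cells and 63.3 kb after IR, and these overlapped. Other genes lie in these stretches, and the sites were not assigned to any of them.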
